A study of Mus musculus with 2 samples.

Results

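Atf4, Atf5, Ddit3, Trib3, Chac1, Ddit4, Sesn2, Nupr1, Atf3 and Ppp1r15a are 10 genes of the integrated stress response and its effectors. They were taken by symbol from a table of 32245 gene symbols, and all 10 were counted. They were chosen with their values in these libraries known, including their differences between the libraries and their uneven spread over cells. The values below therefore describe these genes and test nothing.

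The integrated stress response begins when 1 of several kinases phosphorylates the translation factor eIF2 alpha, for example on shortage of amino acids, unfolded protein in the endoplasmic reticulum or lack of haem. Most translation slows, while the messenger RNA of the transcription factor ATF4 is translated more. ATF4 raises genes of amino acid supply, and with prolonged stress also Ddit3 (CHOP), Trib3 and Chac1, which are linked to cell death. Ppp1r15a (GADD34) closes the loop by directing a phosphatase to eIF2 alpha. Ddit4 and Sesn2 restrain the growth kinase mTORC1, and they also answer to p53, low oxygen and glucocorticoids or DNA damage.

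Transcripts were counted in mouse gastruloids, aggregates of embryonic stem cells that begin to pattern a body axis in culture. Both groups came from R1 cells, plated at about 300 per well in N2B27, given 3 µM CHIR (a GSK3 inhibitor that turns on Wnt signalling) at day 2 and pooled 12 hours later at day 2.5. The groups were WT and Sp5/8 dKO, a line with both Sp5 and Sp8 knocked out. Each had 1 library of pooled aggregates, with no replicate and no mention of more than 1 mutant clone, so a difference of genotype and one of library, clone or culture cannot be told apart.

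The libraries held 8707 and 10587 cells at the limits of at least 2500 UMIs (molecular tags that count each captured transcript once), at least 1000 genes and at most 10% mitochondrial UMIs. The median cell had 10571 UMIs in the library labelled WT and 8637 in the library labelled Sp5/8 dKO, and the 2 libraries shared 27 cell barcodes. Sp5 went from 109.1 to 478.7 CPM (counts scaled to the UMI total of a library's cells), and Sp8 from 20.8 to 40.1. Both targeted genes were thus higher in the library labelled Sp5/8 dKO, against its label, with log2 ratios of 2.13 and 0.95. Counts at the 3′ end need not lie in the deleted part, which is not given in the sources used here. Of the markers checked, none of 8 primed epiblast genes (1330 and 1468 CPM summed) and none of 10 primitive streak genes (331 and 524 CPM) was at 0, while mesoderm genes summed to 30.5 and 22.9 CPM with 1 and 2 of 8 at 0. Whether the 2 libraries were exchanged was not tested, and an exchange would turn every direction given below, which are between 2 labelled libraries only.

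The promoters of the 10 genes were read first, because ATF4 and its partners bind a composite C/EBP-ATF response element, which 4 of the genes share. RefSeq promoter windows of the GRCm38.p6 build, from 250 bases before to 50 bases after the transcript start, matched all 10 genes, with 11 windows in all. The letters TGATGNAA, on either strand, stood in the windows of Chac1, Atf3, Nupr1 and Trib3. Among all 32851 windows of this length 3.97% held them. In each of the 4 genes the match lay on the strand opposite to the one printed. Its first printed base was 193 bases before the RefSeq start in Chac1 and 110 before it in Atf3 and in Nupr1. In Trib3 it was base 15 of the RefSeq transcript. GENCODE, which gives the gene positions below, places some starts elsewhere. Its Atf3 and Nupr1 genes begin at 191218039 and 126630861, so these windows lie inside the genes. Its Trib3 gene begins at 152344032, so the Trib3 match lies before that start. The 30 bases around each match follow, 5′ to 3′ along the gene, with the matching letters in capitals. They are at chr2:119351038-119351067 (plus strand), chr1:191183425-191183454 (minus), chr7:126625562-126625591 (minus) and chr2:152344028-152344057 (minus).
Chac1: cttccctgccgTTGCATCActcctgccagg
Atf3: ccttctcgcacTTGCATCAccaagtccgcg
Nupr1: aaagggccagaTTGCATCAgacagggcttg
Trib3: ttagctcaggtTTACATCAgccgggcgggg
The first 3 share the same 8 letters, and Trib3 has the variant base that the search allows. The 250 bases before the RefSeq start are given for these 3 genes, whose match lies before that start. They are at chr2:119350992-119351241 (plus strand), chr1:191183334-191183583 (minus) and chr7:126625471-126625720 (minus).
Chac1: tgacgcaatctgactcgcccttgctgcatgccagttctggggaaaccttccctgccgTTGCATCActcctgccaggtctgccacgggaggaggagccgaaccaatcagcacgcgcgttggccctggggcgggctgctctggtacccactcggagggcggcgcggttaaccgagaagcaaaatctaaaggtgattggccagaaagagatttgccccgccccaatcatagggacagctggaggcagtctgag
Atf3: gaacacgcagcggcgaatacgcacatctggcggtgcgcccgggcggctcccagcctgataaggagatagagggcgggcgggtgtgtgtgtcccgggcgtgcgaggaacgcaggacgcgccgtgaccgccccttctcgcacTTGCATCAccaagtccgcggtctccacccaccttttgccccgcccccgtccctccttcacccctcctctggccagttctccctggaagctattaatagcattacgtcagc
Nupr1: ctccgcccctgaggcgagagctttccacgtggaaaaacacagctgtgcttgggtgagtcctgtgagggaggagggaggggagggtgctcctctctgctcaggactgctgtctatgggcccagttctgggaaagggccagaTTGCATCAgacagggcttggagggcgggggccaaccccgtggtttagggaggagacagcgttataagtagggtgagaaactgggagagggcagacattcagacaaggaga

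A second motif, the cAMP response element TGACGTCA, stood in the window of Ppp1r15a, 12 bases before the start, and in 1.79% of all windows. The endoplasmic reticulum stress element was found in none of the 11 windows and in 0.119% of all windows. No printed match overlaps another. Among 28 other ATF4 target genes with a window, 9 held TGATGNAA, among them Asns and Slc1a4. A match is a run of letters and was not tested as a binding site, and sites outside these windows were not searched.

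Between the libraries, 9 of the 10 genes were higher, Sesn2 by a log2 ratio of only 0.0044, and 1 was lower in the library labelled Sp5/8 dKO. A log2 ratio of at least 0.25 was found for 5 genes (Chac1, Trib3, Atf3, Nupr1 and Atf4), a size that 5.70% of the 12407 genes averaging 1 CPM or more reached. A ratio of -0.25 or less was found for Ddit4 alone, against 8.89% of those genes. Of the 6 genes averaging 10 CPM or more, 3 were at 0.25 or above and 1 at -0.25 or below, where 3.13% and 4.67% of 7607 such genes were. The counting interval lay above 0 for 6 of the 10 genes and below 0 for 1, against 20.5% and 30.4% of the 12407, and with TMM scaling, which sets the all-gene median near 0, it lay above 0 for 8 and below 0 for 1. The median over the 10 genes was 0.22, beside -0.03 over all 12407. The genes were chosen from this contrast, so nothing is read from these counts. Intervals are exact 95% intervals and cover counting error only. There were no replicates.

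Chac1 breaks down glutathione and is a late target of ATF4 and CHOP. Chac1 (ENSMUSG00000027313, chromosome 2, 119351229 to 119354381, plus strand) had 1456 UMIs, or 15.0 CPM (14.2 to 15.8), in the library labelled WT. In the library labelled Sp5/8 dKO it had 2488 UMIs, or 25.5 CPM (24.5 to 26.5). The intervals lay apart, and the level was 1.70-fold higher, a log2 ratio of 0.77 (0.67 to 0.86). Trib3 encodes a pseudokinase that binds AKT and dampens ATF4 and CHOP in return. Trib3 (ENSMUSG00000032715, chromosome 2, 152337422 to 152344032, minus strand) had 857 UMIs, or 8.82 CPM (8.24 to 9.43), against 1337 UMIs, or 13.7 CPM (13.0 to 14.4). Its log2 ratio of 0.63 (0.51 to 0.76) is a 1.55-fold higher level.

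Ddit3 encodes CHOP, the factor that turns a lasting stress response towards cell death. Ddit3 (ENSMUSG00000025408, chromosome 10, 127290774 to 127296288, plus strand) had 562 UMIs, or 5.78 CPM (5.32 to 6.28), in the library labelled WT and 622 UMIs, or 6.37 CPM (5.88 to 6.89), in the library labelled Sp5/8 dKO. The 2 intervals overlapped, and the log2 ratio was 0.14 (-0.03 to 0.31), so a difference was not detectable over all cells at this depth. With TMM scaling of the library totals it was 0.17 (0.0011 to 0.34), just apart from 0. A second identifier with the symbol Ddit3 (ENSMUSG00000116429, 127290829 to 127293753, plus strand) had 0 UMIs. It lies inside the first on the same strand. How reads in the shared part were counted is not given in the sources used here, so some could be missing from the Ddit3 level. Ddit3 has an antisense neighbour, Mars, a methionyl-tRNA synthetase gene and ATF4 target at 48.4 and 57.4 CPM. How strand was used in counting is not given in the sources used here, so reads of the 2 genes cannot be told apart with certainty.

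Atf4, the central factor of the response, is controlled largely in translation, which transcript counts do not show. Atf4 (ENSMUSG00000042406, chromosome 15, 80255184 to 80257541, plus strand) went from 158 CPM (15375 UMIs) in the library labelled WT to 195 CPM (19085 UMIs) in the other, a log2 ratio of 0.30 (0.27 to 0.34). Atf5, a related factor with upstream reading frames like those of Atf4 (ENSMUSG00000038539, chromosome 7, 44812256 to 44816658, minus strand), had 9.42 and 10.1 CPM, a log2 ratio of 0.10 (-0.03 to 0.24), or 0.13 (0.0027 to 0.27) with TMM scaling. Atf5 overlaps Nup62 and Il4i1 on the other strand, with the same limit as for Ddit3. The Atf4 intervals lay apart and the Atf5 intervals overlapped. Atf3 is an early stress factor of the same family (ENSMUSG00000026628, chromosome 1, 191170296 to 191218039, minus strand). Its 479 UMIs, or 4.93 CPM (4.50 to 5.39), stood against 729 UMIs, or 7.47 CPM (6.93 to 8.03), a log2 ratio of 0.60 (0.43 to 0.77). Nupr1, a small chromatin-associated stress protein (ENSMUSG00000030717, chromosome 7, 126623249 to 126630861, minus strand), was the most thinly counted of the genes. It had 124 UMIs, or 1.28 CPM, and 185 UMIs, or 1.89 CPM, with a wide interval for its log2 ratio of 0.57 (0.23 to 0.91).

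Of the 2 restraints of mTORC1, Ddit4 was lower in the library labelled Sp5/8 dKO and Sesn2 was nearly equal. Ddit4 (REDD1; ENSMUSG00000020108, chromosome 10, 59949669 to 59951834, minus strand) had 160 CPM (15533 UMIs) in the library labelled WT and 125 CPM (12242 UMIs) in the library labelled Sp5/8 dKO. It was lower by a log2 ratio of -0.35 (-0.38 to -0.32). Sesn2, a leucine sensor (ENSMUSG00000028893, chromosome 4, 132492032 to 132510501, minus strand), had 49.6 and 49.8 CPM, a log2 ratio of 0.00 (-0.05 to 0.06). Sesn2 overlaps Gm12981 on its own strand, so counts could be split between them. Ppp1r15a, the feedback subunit (ENSMUSG00000040435, chromosome 7, 45522916 to 45526268, minus strand), had 20.5 CPM (19.6 to 21.4) and 22.5 CPM (21.6 to 23.5), a log2 ratio of 0.14 (0.05 to 0.23). The plot of levels and ratios shows Ddit4 as the single gene below 0.

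**Figure D1:**
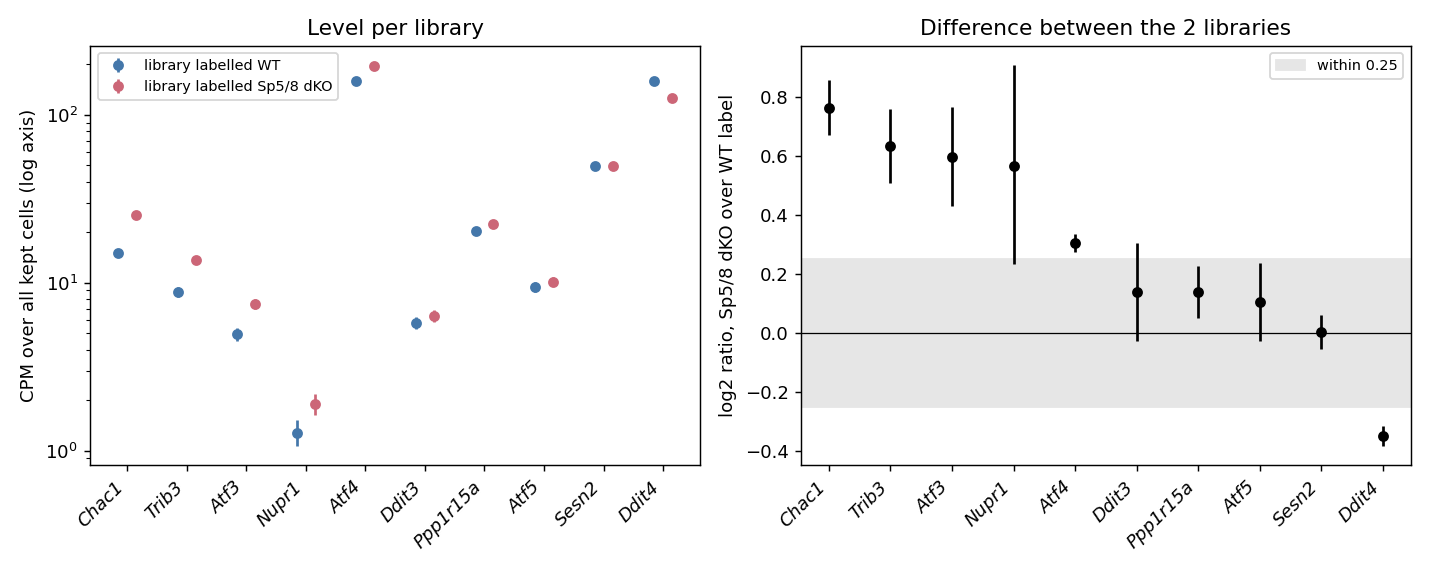
Left: level of each gene per library in CPM over all kept cells (log axis). Right: log2 ratio of the library labelled Sp5/8 dKO over the library labelled WT, with the band of ±0.25 shaded. Bars are exact 95% counting intervals. Chac1, Trib3, Atf3, Nupr1 and Atf4 lie above the band, Ddit4 lies below it, and the intervals of Ddit3, Atf5 and Sesn2 cross 0.

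Whether such a difference lay in all cells or in a few high cells was examined per library in 4 ways. For shares of cells, each cell was thinned to 2500 UMIs, since the libraries differ in depth. A Chac1 UMI was then seen in 3.39% of cells (3.02 to 3.79) in the library labelled WT and in 5.63% (5.20 to 6.09) in the library labelled Sp5/8 dKO. Trib3 was seen in 2.06% (1.77 to 2.38) and 3.51% (3.17 to 3.88), and Atf4 in 31.2% (30.2 to 32.1) and 37.2% (36.2 to 38.1). Each of these 3 genes was seen in more cells of the library labelled Sp5/8 dKO, and without thinning the Chac1 shares were 12.3% and 17.6%. The Ddit3 shares were 1.48% (1.24 to 1.76) and 1.58% (1.35 to 1.83) with thinning and 5.90% and 5.19% without, so their order turned with depth. Ddit4 was seen in 31.8% (30.8 to 32.8) and 26.1% (25.2 to 26.9) of thinned cells.

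High cells were rare. At 5000 UMIs per cell, 9 of 8296 cells of the library labelled WT and 20 of 9970 cells of the library labelled Sp5/8 dKO held 3 or more Chac1 UMIs. These held 4.68% and 5.24% of the Chac1 UMIs. For Ddit3, 2 and 7 cells held 3 or more UMIs, with 2.40% and 7.28% of its UMIs. The sum of the 10 genes, thinned to 2500 UMIs, had a median of 1 UMI per cell and a 90th percentile of 3 in both libraries, with highest values of 8 and 13. The mean of that sum was 1.09 and 1.16. A variance over mean of at least 1.1 in thinned cells, where even and random spread gives about 1, was found for Atf4 and Ddit4 in both libraries and for Atf3 in the library labelled Sp5/8 dKO. Of the genes averaging 10 CPM or more, 4.82% and 4.51% reached that value. Which genes reach it depended on depth. At 5000 UMIs Chac1 was at 1.21 and 1.18 and Ddit3 at 1.11 and 1.23, and Nupr1 was at 1.24 and 1.07. The 95th percentile of genes averaging 10 CPM or more also rose with depth. It was 1.19 in the library labelled WT and 1.16 in the library labelled Sp5/8 dKO at 5000 UMIs. Ddit4, at 1.35 and 1.32, and Chac1 lay above it in both libraries. Ddit3 and Atf4 (1.19) lay above it only in the library labelled Sp5/8 dKO, and Nupr1 only in the library labelled WT. Ddit3 and Nupr1 averaged less than 10 CPM, so this background is unlike them.

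In the second comparison the cells of each library were ranked by the sum of the other 9 genes and cut into 10 equal groups, so that a gene's own counting noise did not place its cells. Chac1 was higher in the library labelled Sp5/8 dKO in 10 of 10 groups, with log2 ratios from 0.55 to 1.05 and every interval above 0. Atf4 was higher in 10 of 10, from 0.22 to 0.49, again with every interval above 0. Trib3 (0.28 to 1.08) and Atf3 (0.32 to 0.85) were also higher in 10 of 10, with 6 intervals above 0 each. Ddit4 was lower in 10 of 10, from -0.51 to -0.20, with every interval below 0. Ddit3 was higher in 7 of 10 groups, between -0.48 and 0.62, with 1 interval above 0. Nupr1 and Atf5 were each higher in 7, Sesn2 in 6 and Ppp1r15a in 9, with 2, 1, 0 and 3 intervals above 0. Most cells tie in this ranking, since the thinned sum of the other 9 genes is 0, 1 or 2 in most cells, and ties were split at random, so the 10 groups hold only a few distinct ranks.

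Classes of cells with 0, 1, 2 and 3 or more UMIs of the other 9 genes, chosen after seeing the data, split no ties. For Chac1 they held 3221, 3038, 1572 and 876 cells of the library labelled WT and 3831, 3613, 1971 and 1172 of the other. Chac1 was higher in the library labelled Sp5/8 dKO in all 4 classes, with log2 ratios of 0.74, 0.90, 0.53 and 0.80, and Atf4 and Trib3 were also higher in all 4, each with every interval above 0. Atf3 was higher in all 4, with 3 intervals above 0. Ddit4 was lower in all 4, but in the class with 3 or more UMIs its ratio of -0.08 (-0.23 to 0.08) was not apart from 0, against -0.42 (-0.47 to -0.37) in the class with 0. Ddit3 was higher in 3 of 4, with no interval apart from 0. Within the library labelled WT, Chac1 stood at 12.2 CPM (11.1 to 13.4) in the class with 0 and 21.6 (18.8 to 24.8) in the class with 3 or more, and in the other library at 20.5 (19.0 to 22.0) and 37.6 (34.0 to 41.4). Chac1 was thus higher in cells with more of the other 9 genes in both libraries. Trib3 stood at 11.2 CPM (10.1 to 12.4) and 21.7 (19.1 to 24.6) in these 2 classes of the library labelled Sp5/8 dKO, while its intervals overlapped in the library labelled WT, at 7.66 (6.78 to 8.63) and 10.4 (8.55 to 12.6). For cells ranked instead by all 10 genes summed, median depth and mitochondrial share differed little between the lowest and highest of 10 groups. They were 10747 and 10281 UMIs and 3.84% and 3.84% in the library labelled WT.

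For the third comparison each cell with at least 5000 UMIs was split into 2 separate draws of 2500 UMIs, and the mean in the second draw was taken for cells with and without a UMI in the first. If every cell held a transcript at 1 rate the fold would be 1. Its median over all genes averaging 10 CPM or more was 1.1 in the library labelled WT and 1.09 in the library labelled Sp5/8 dKO, and its 95th percentile was 1.80 and 1.76. Ddit3, Atf3, Nupr1 and Atf5 averaged less than 10 CPM, so these better-counted genes are an unlike background for them. Chac1 had folds of 4.64 (3.22 to 6.51) and 2.57 (2.01 to 3.26). Ddit3 had folds of 5.34 (2.38 to 10.5), from 9 UMIs, and 6.52 (3.48 to 11.3), from 14 UMIs. Cells that showed either transcript once therefore held more of it than other cells. The intervals of the 2 Chac1 folds overlapped slightly. Atf3 had 1.56 (0.19 to 5.81), from 2 UMIs, and 4.14 (2.22 to 7.15). Nupr1 had 38.5 (9.77 to 111) and 7.19 (0.18 to 43.3), resting on 4 UMIs and 1 UMI. Atf4 was at 1.26 and 1.27, Sesn2 at 1.29 and 1.23 and Ddit4 at 1.56 and 1.52. Their intervals lay above 1 in both libraries, so cells that showed these transcripts also held more of them, by smaller folds. Ppp1r15a was at 1.26 and 1.54 and Trib3 at 1.52 and 1.82, with the interval above 1 only in the library labelled Sp5/8 dKO. Atf5 was at 1.82 and 1.88, with both intervals including 1.

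**Figure D2:**
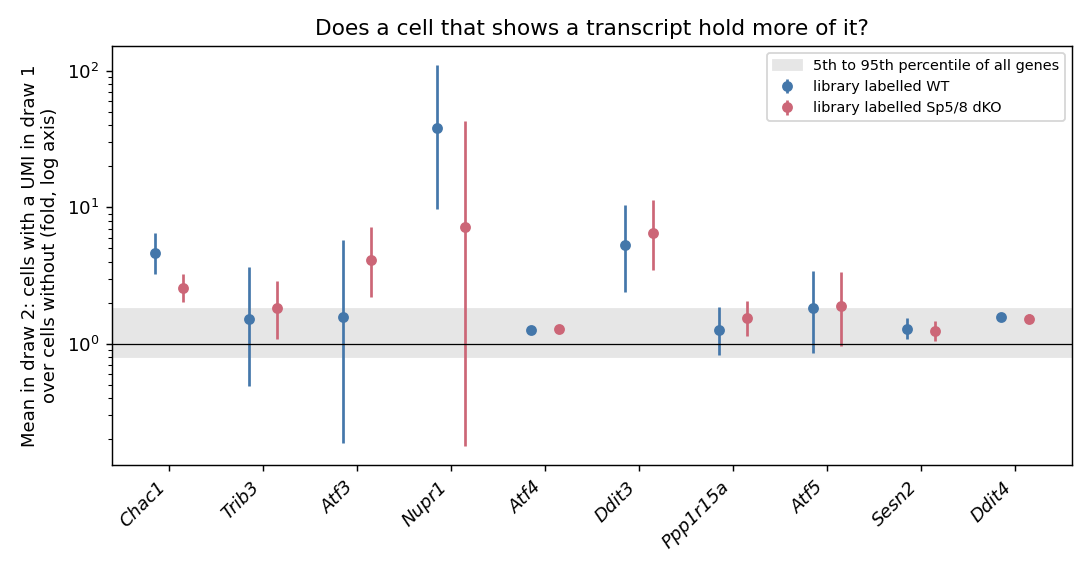
Ratio (fold, log axis) of the mean count in a second draw of 2500 UMIs between cells with and without a UMI of the gene in a separate first draw, per library. Bars are exact 95% counting intervals. The grey band spans the 5th to 95th percentile of genes averaging 10 CPM or more, and Ddit3, Atf3, Nupr1 and Atf5 average less. The points of Chac1, Ddit3, Nupr1 and Atf5 lie above the band in both libraries, and those of Atf3 and Trib3 only in the library labelled Sp5/8 dKO. The intervals of Atf5, of Trib3 and, in the library labelled Sp5/8 dKO, of Nupr1 reach into the band. The points of Atf4, Sesn2, Ddit4 and Ppp1r15a lie inside it.

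Cells were then clustered jointly without the 10 genes, Pmaip1 and the stress lists below, which gave 9 clusters. Cluster 0 is described here because it had the highest Ddit3 level. It held 40 cells of the library labelled WT and 76 of the other, and its leading genes by fold were Ddit3, Pmaip1, 2410006H16Rik, Zfas1 and Fam129a. It stayed unnamed, because no class of markers had most of its genes raised in it. Ddit3 stood at 57.2 CPM (33.9 to 90.3) in cluster 0 against 5.62 in all other cells of the library labelled WT, 10.4-fold (5.99 to 16.2). In the library labelled Sp5/8 dKO it stood at 132 CPM (103 to 166) against 5.66, 23.4-fold (17.97 to 29.8). Pmaip1, which encodes the p53-induced death protein NOXA, was 14.0-fold and 18.6-fold higher there. Cluster 0 made up 0.459% and 0.718% of cells and held 3.20% and 11.6% of all Ddit3 UMIs.

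Outside cluster 0 the Ddit3 log2 ratio was 0.01 (-0.16 to 0.19), against 0.14 with it. The Ddit3 fold between draws was 2.55 (0.61 to 5.95) without cluster 0 in the library labelled Sp5/8 dKO, against 6.52 (3.48 to 11.3) with it. These intervals overlapped, and the fold without cluster 0 rested on 4 UMIs. For the library labelled WT the fold was 6.12 (2.60 to 11.4) without cluster 0, from 9 UMIs. It thus stayed above 1 outside that cluster in the library labelled WT, though on few UMIs. The other 9 genes fell into 3 kinds. Nupr1 was 31.2-fold (14.5 to 55.6) and 20.8-fold (12.0 to 32.8) higher in cluster 0, Atf5 2.88-fold (1.17 to 5.37) and 5.28-fold (3.43 to 7.54), and Trib3 3.81-fold (1.73 to 6.71) and 2.77-fold (1.65 to 4.19). Ddit4 was 1.64-fold and 2.51-fold higher and Sesn2 1.83-fold and 1.79-fold, with all 4 intervals above 1. Atf4, Chac1 and Atf3 were not detectably higher there. Atf4 had folds of 0.99 (0.73 to 1.30) and 1.12 (0.92 to 1.34), Chac1 1.17 (0.34 to 2.48) and 0.54 (0.20 to 1.04), and Atf3 0.96 (0.016 to 3.60) and 1.35 (0.40 to 2.88). Ppp1r15a was at 1.01 (0.34 to 2.03) and 2.00 (1.26 to 2.93).

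**Figure D3:**
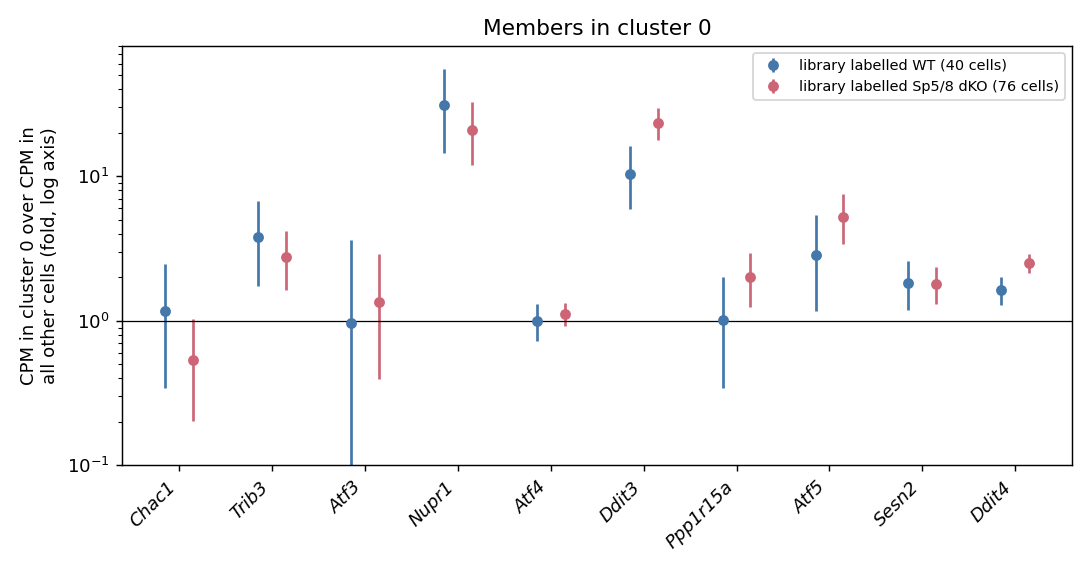
Level in cluster 0 over the level in all other cells (fold, log axis) per gene and library; bars are exact 95% counting intervals, and the lower end for Atf3 in the library labelled WT lies below the axis, at 0.016. Nupr1 and Ddit3 stand highest, at 31.2 and 20.8 and at 10.4 and 23.4, while the intervals of Atf4, Chac1 and Atf3 include 1.

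Several other measures set cluster 0 apart. Its median mitochondrial share was 0.33% and 0.41%, against 3.81% and 4.07% in other cells. Its median depth was 6843 and 6066 UMIs, against 10583 and 8651. The nuclear RNA Malat1 stood at 12909 and 10334 CPM in it and at 2550 and 2253 CPM elsewhere, and ribosomal protein genes took 29.6% and 29.6% of its UMIs against 23.5% and 24.0%. Cluster 7 shared the low mitochondrial share (0.23% and 0.23%), the low depth (3676 and 3226 UMIs) and the high ribosomal share (30.6% and 31.1%). Malat1, by contrast, was low in cluster 7, at 194 and 107 CPM. The part of these measures in the cluster 0 levels above was not tested. Among the stress lists, p53 targets were 1.44-fold and 1.32-fold higher in summed level in cluster 0, with 17 of 20 genes higher in each library, where 45.3% and 44.7% of all genes were higher. ATF4 targets were 1.25-fold and 1.21-fold higher, with 25 and 24 of 34 genes. The endoplasmic reticulum chaperone genes of the XBP1 and ATF6 arms were at 0.73 and 0.75 of the level elsewhere, and hypoxia targets at 0.47 and 0.50. Extraembryonic endoderm markers, summed, stood at 118 and 75.2 CPM in cluster 0 and 111 and 105 over the libraries. Naive pluripotency markers stood at 213 and 271 CPM in it and 170 and 154 over the libraries, with 2 and 3 of 10 markers at 0.

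The fourth comparison was within each of the 7 clusters with at least 100 cells in both libraries. They were led by Adamts9 and Mesp1 (cluster 1), Tdgf1 and Rhox5 (cluster 2), Dppa3 and Rhox6 (cluster 3, naive pluripotent-like with 9 of 10 markers raised), Irx3 and Gbx2 (cluster 4), Nfib and Cdx2 (cluster 5), Onecut2 and Sox1 (cluster 6, neural-like with 5 of 8) and Rps26 and Rpf2 (cluster 7). Atf4 was higher in the library labelled Sp5/8 dKO in 7 of 7, from 0.16 to 0.68, with 6 intervals above 0. Trib3 was higher in 7 of 7, from 0.04 in cluster 6 to 1.19 in cluster 7, with 4 intervals above 0. Chac1 ranged from 0.00 in cluster 3 to 1.68 in cluster 7, with 5 intervals above 0. Atf3 was higher in 6 of 7, with 6 intervals above 0, and stood at -0.52 in cluster 3, where counts were few. Ddit4 was lower in 7 of 7, from -0.73 to -0.09, with 6 intervals below 0. These differences were therefore not held by 1 cluster. The shares of cells in the clusters did differ between the libraries. Cluster 2 held 28.0% and 49.2% of cells, cluster 4 37.9% and 26.5%, and cluster 5 17.4% and 5.05%. Ratios over all cells also take in these shares. With equal cluster weights they were 0.27 for Atf4, 0.49 for Trib3, 0.66 for Chac1, 0.59 for Atf3 and -0.31 for Ddit4. Over all cells they were 0.30, 0.63, 0.77, 0.60 and -0.35. Ddit3 was higher in 2 of 7 clusters, with no interval apart from 0, and Nupr1 in 7 of 7, also with none. Ddit3 stood at 0.29 (-0.0056 to 0.60) in cluster 2. With clusters at a finer resolution of 1.0 its ratio was 0.66 (0.09 to 1.30) in a cluster led by Trh and Fgf8. In another, led by Ung and Cdc6, it was -1.24 (-2.90 to -0.02), from 26 and 6 UMIs.

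Levels differed between clusters within a library as well. Chac1 had its highest level among these clusters in the library labelled WT in cluster 3, at 21.7 CPM, and stood at 20.2 in cluster 2, with overlapping intervals (14.5 to 31.4 and 18.7 to 21.9). It had 9.72 CPM (8.74 to 10.8) in cluster 4 and 4.72 (2.26 to 8.68) in cluster 6, so the Irx3-led and neural-like clusters were lower than cluster 2. In the library labelled Sp5/8 dKO it had 30.8 CPM (29.3 to 32.4) in cluster 2, 16.7 (15.1 to 18.4) in cluster 4 and 8.96 (5.12 to 14.6) in cluster 6, the same order among these 3 clusters. The highest level in that library was in cluster 7, at 40.5 CPM (30.1 to 53.2), and clusters 3 and 5 had 21.7 and 28.6. Trib3 had the same order over clusters 2, 4 and 6, with 12.7, 5.20 and 3.30 CPM in clusters 2, 4 and 6 of the library labelled WT and 16.2, 8.32 and 3.36 CPM in the other. Ddit4 did not, with 135, 193 and 151 CPM and 113, 150 and 108 CPM in these clusters. Nupr1 was highest in cluster 3 among the 7, at 8.54 and 12.7 CPM. In the extraembryonic endoderm-like cluster 8, with 16 cells per library, Chac1 had 0 UMIs, which allows up to 19.4 and 22.7 CPM by the exact upper limit. Cluster 7 was shallow, with medians of 3676 and 3226 UMIs and mitochondrial shares of 0.23% and 0.23%, and the part of this in its large ratios was not tested.

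**Figure D4:**
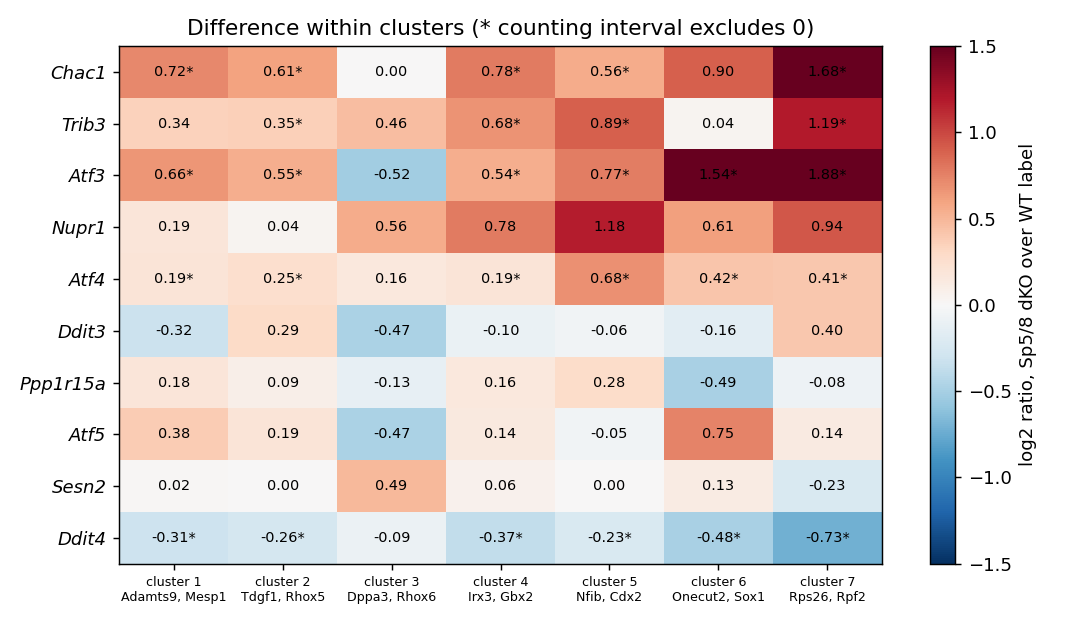
Log2 ratio of the library labelled Sp5/8 dKO over the library labelled WT for each gene (vertical) in the 7 clusters with at least 100 cells in both libraries (horizontal, with 2 leading genes each); red is higher and blue lower, and a star marks a 95% counting interval that leaves out 0. Chac1, Trib3, Nupr1 and Atf4 are at 0 or above in every column, and Ddit4 is below 0 in every column.

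The genes were also compared within the same cells, thinned to 2500 UMIs. In cells with a Chac1 UMI, Trib3 was 2.76-fold (1.5 to 4.49) higher than in cells without in the library labelled WT and 2.03-fold (1.42 to 2.78) in the library labelled Sp5/8 dKO. Atf4 was 1.48-fold (1.26 to 1.73) and 1.35-fold (1.22 to 1.5) higher in them. The summed ATF4 targets were 1.30-fold (1.25 to 1.35) and 1.22-fold (1.19 to 1.25) higher, and the summed p53 targets 0.90-fold (0.85 to 0.94) and 0.92-fold (0.89 to 0.95), so lower. Ddit3 was not detectably higher in Chac1 cells, at 0.77 (0.13 to 1.98) and 1.28 (0.62 to 2.22). Cells with a Ddit4 UMI showed the opposite leaning, with p53 targets at 1.11-fold (1.09 to 1.13) and 1.14-fold (1.12 to 1.15) and ATF4 targets at 0.97 (0.95 to 0.98) and 0.99 (0.97 to 1.00).

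Over the 90 ordered pairs of the 10 genes, the second gene was higher in cells with the first in 62 pairs in the library labelled WT and in 82 in the library labelled Sp5/8 dKO. The interval lay above 1 in 11 and 29 pairs and below 1 in none. Without cluster 0 the counts of intervals above 1 were 11 and 17. The libraries differ in their number of cells, which bears on how many intervals leave 1, and no share for pairs of other genes was computed, so the 2 libraries' counts are not compared. Pearson correlations across cells were small throughout, at most 0.06 and 0.08 for any pair over 8707 and 10587 cells, and no order is read from them.

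The wider pathway was described by 9 lists. Of 34 further ATF4 targets, 33 averaged 1 CPM or more. The median of their log2 ratios was 0.35, with 29 higher and 4 lower, 21 at 0.25 or more and 1 (Cebpb, at -0.28, named after its value was seen) at -0.25 or less. Of all 12407 genes 43.2% were higher and 56.8% lower, and 5.70% and 8.89% were past 0.25 in size in each direction. Among those averaging 10 CPM or more, the largest were the neutral amino acid transporter Slc1a4 at 0.64 (18.5 to 28.7 CPM), asparagine synthetase Asns at 0.63 (98.0 to 151.9 CPM) and the mitochondrial folate enzyme Mthfd2 at 0.55 (197 to 288 CPM). Summed over the list, the ratio lay between 0.30 and 0.43 in each of clusters 0 to 7 and was -0.07 (-0.26 to 0.11) in the 32 cells of cluster 8. Cluster 0, rich in Ddit3, thus had an ATF4 target ratio of 0.31 (0.21 to 0.42), within the range of the other clusters.

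The medians of the other lists lay nearer to that of all genes, though some of these lists held genes past 0.25 in size. The 22 genes of the XBP1 and ATF6 arms, which raise chaperones of the endoplasmic reticulum, had a median of -0.0050, with 10 higher, 12 lower and none past 0.25 in size. Pdia4 was at -0.20, Herpud1 at 0.16 and Syvn1 at -0.15. The kinases, phosphatase and exchange factor of eIF2 had a median of 0.08 over 13 genes, with Eif2b4 at 0.21, Eif2b2 at 0.17 and Eif2b3 at 0.15. p53 targets had a median of -0.14 over 20 genes, with 2 higher and 18 lower (56.8% of all genes were lower), and Plk2 (-0.40), Btg2 (-0.36) and Trp53inp1 (-0.28) lowest in the better-counted range. Immediate early genes, which dissociation of tissue can raise, had a median of -0.15 over 16, with Klf6 at -0.33, Fosb at 0.31 and Fos at -0.28. The medians were -0.02 for 12 heat shock genes (Hspa8 at 0.10, Hsph1 at -0.09, Dnajb1 at 0.07), -0.07 for 10 NRF2 targets (Gclc at -0.28, Gsr at -0.23, Nqo1 at -0.18), -0.03 for 11 hypoxia targets (Pdk1 at 0.44, Slc2a1 at -0.21, Bnip3 at -0.07) and -0.0046 for 7 genes of the mitochondrial unfolded protein response (Dnaja3 at -0.14, Lonp1 at 0.12, Clpp at 0.06). Beside the -0.03 of all genes, the ATF4 targets had the highest of the 9 medians. A ratio of 0.25 or more was found for 4 hypoxia targets, 2 immediate early genes and 1 NRF2 target, against 5.70% of all genes. One of -0.25 or less was found for 6 immediate early genes and 4 p53 targets, against 8.89%. It was also found for 1 gene each of the hypoxia, NRF2 and eIF2 lists.

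**Figure D5:**
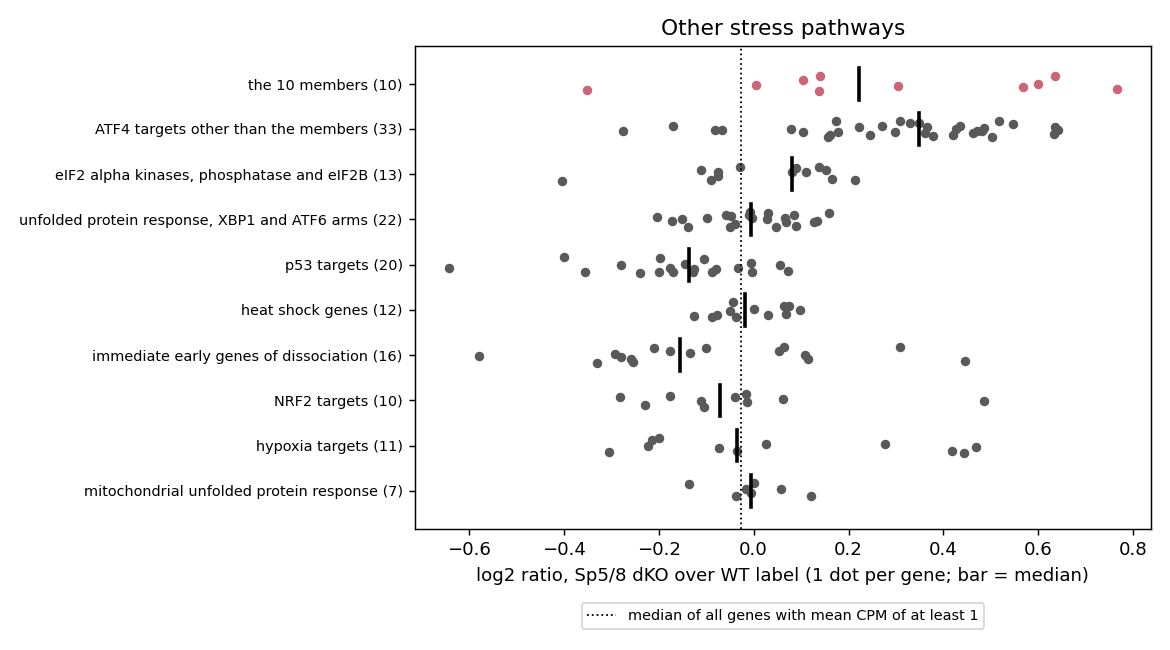
Log2 ratio of the library labelled Sp5/8 dKO over the library labelled WT for single genes (dots) of the 10 stress response genes (red) and of 9 lists (grey), for genes averaging 1 CPM or more; black bars are medians and the dotted line is the median of all genes. The ATF4 targets centre at 0.35 and the XBP1 and ATF6 arms at -0.0050.

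The 12 genes outside the set whose cell-to-cell pattern was most like the summed 10 genes had mean correlations of only 0.029 to 0.045 over 8707 and 10587 cells, which share library and depth. They were Mthfd2, Btg2, Eif4ebp1, Mdm2, Herpud1, Zfp365, Ccng1, Aldh18a1, Nsdhl, Malat1, Acly and Sod1. Mthfd2 and Eif4ebp1 were higher in the library labelled Sp5/8 dKO (0.55 and 0.38), and Btg2 and Mdm2 were lower (-0.36 and -0.14).

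Free RNA was gauged in barcodes of 10 to 100 UMIs. Chac1 stood at 9.09 CPM (6.37 to 12.6) there and at 15.0 in cells of the library labelled WT, and at 15.7 (11.2 to 21.4) and 25.5 in the library labelled Sp5/8 dKO. Chac1 was thus lower in free RNA than in cells in both libraries, and it differed between the libraries there in the same direction as in cells. Trib3 stood at 5.31 CPM (3.28 to 8.11) there and 8.82 in cells of the library labelled WT, and at 13.4 (9.26 to 18.7) and 13.7 in the library labelled Sp5/8 dKO, so in the latter its level in free RNA was close to that in cells. Ddit3 stood at 8.59 (5.95 to 12.0) in free RNA and 5.78 in cells of the library labelled WT and at 4.33 (2.16 to 7.74) and 6.37 in the other, so the order of the libraries in free RNA was opposite to that in cells. Atf4, unlike Chac1, was higher in free RNA than in cells in both libraries. It stood at 182 CPM (169 to 196) in free RNA and 158 in cells of the library labelled WT. In the library labelled Sp5/8 dKO it stood at 229 (211 to 248) and 195, so the libraries differed in the same direction in free RNA as in cells. The part of free RNA in the differences was not tested. No cell type that should lack these genes was available as a background for the shares of cells with a UMI. Just outside the UMI limit, 82 and 149 barcodes with at least 2000 but under 2500 UMIs had 516 and 395 CPM of the 10 genes summed, and just inside it, 88 and 139 barcodes with at least 2500 but under 3000 UMIs had 427 and 462 CPM.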

How the data were processed

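Single cells were captured with a 10x Genomics 3′ kit, per the labels' protocols, which name Cell Ranger 8.0.1 at default settings; the submitters' processing notes name STARsolo, STAR 2.7.9a, Seurat 5.1.0 and mm10. The strand setting and annotation release are not given in the sources used here. The authors deposited unnormalized UMI counts per gene and barcode, with 6794880 barcodes listed per library. Per the labels the median genes per cell were 5333 and 5398. The same numbers of top barcodes gave 3234 and 2848 here.

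Barcodes were kept by the 3 limits given above; 1 and 0 were removed for few genes and 64 and 26 for mitochondrial share. Doublets were kept, and removing the 606 and 897 highest doublet scores (0.8% per 1000 cells) was an alternative. Counts were summed per library as CPM, with 0.5 added to sums for ratios. Sums carry exact Poisson, ratios exact conditional and shares Clopper-Pearson 95% intervals. PCR copies are collapsed by UMIs, and intervals cover counting error only. With 1 library per group no test exists. Clusters came from the Leiden method at a resolution of 0.5 on 2000 variable genes, 30 components and 15 neighbours (scanpy 1.11.5), and TMM factors from edgeR 4.0.16. Positions follow GENCODE M21 on GRCm38. A cluster took a class name when over 50% of its markers were 1.5-fold higher and 1 was among its 10 leading genes, a rule set after the clusters were seen. Ratios and draws were tested on simulated data.

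The 10 genes and the lists were chosen with earlier results of these data known. Named are the 10 genes, Sp5 and Sp8, the 3 largest ratios per list among genes averaging 10 CPM or more, the 12 most alike genes and the leading 5 genes of a cluster. Mars, Pmaip1 and other neighbouring genes are named outside this rule.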

Additional observations from a re-analysis of the deposited data

Results flagged for a closer look

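The 10 genes gave signal in barcodes outside the cells. In barcodes of 10 to 100 UMIs their summed level was 436.1 CPM (415.7 to 457.1) in the library labelled WT, from 1726 UMIs, and 467.0 CPM (440.8 to 494.4) in the library labelled Sp5/8 dKO, from 1187 UMIs. In cells it was 433.4 and 458.2 CPM. Both are far above the limit that a count of 0 allows, and the levels in and out of cells were close for the sum. They drew attention because these barcodes lie outside the cells in which the differences between the libraries were measured.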

How the results depend on the processing

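The alternatives with equal cluster weights, a 5000 UMI minimum, a 5% mitochondrial limit, doublet removal, TMM and leaving out cells low in chromosome 6 or 11 were planned; single clusters, depth classes, classes by UMIs of the other 9 genes, cells with at least 1% mitochondrial UMIs and leaving out cluster 0 were chosen after seeing the data. Of 200 single ratios, 136 stayed within the counting interval, 60 moved and 4 reversed, and causes were not tested. Changes of sign for Ddit3, Atf5 and Sesn2, whose intervals over all cells include 0, are not counted among the 4 reversed. With equal cluster weights Trib3 was 0.49 and Chac1 0.66. In cells under 5000 UMIs the log2 ratios were -0.10 for Ddit3, 0.49 for Trib3 and 1.25 for Chac1, and the median of the 10 genes was 0.42. By cluster, Ddit3 was -0.32, 0.29, -0.47, -0.10, -0.055, -0.16 and 0.40 in clusters 1, 2, 3, 4, 5, 6 and 7. Trib3 was 0.34, 0.35, 0.46, 0.89, 0.041 and 1.19 in clusters 1, 2, 3, 5, 6 and 7. Chac1 was 0.61, 0.0031, 0.56, 0.90 and 1.68 in clusters 2, 3, 5, 6 and 7. In cluster 3 the median reversed to -0.043, Atf3 to -0.52 and Ppp1r15a to -0.13; Ppp1r15a was also -0.49 in cluster 6 and -0.078 in cluster 7. The median was 0.42 in cluster 5 and 0.41 in cluster 7. The all-gene median was -0.03, and 0.0029 with TMM. No paired analysis was possible because each group has 1 library, and no replicate could be left out. Depth limits Nupr1, Atf3 and Ddit3 in small clusters, where sums were under 30 UMIs.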
